A study of Bos taurus with 24 samples.

Results

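Follicles with high levels of mitotic genes were set against follicles with low levels among 16 bovine ovarian follicles, each the largest follicle of a different heifer, with diameters of 8 to 12 mm. The groups were chosen by measured values. Follicle J980 was left out, the other 15 were ranked by the mean estimated level of CCNB1, BIRC5, UBE2C and PLK1, and the 5 highest (mitotic-high) were compared with the 5 lowest (mitotic-low) across all other genes. Thus 10 of the 16 follicles entered the comparison, and the 5 in the middle of the order and J980 did not. Each follicle had been hybridised to 3 of 24 arrays, and every array carried 2 follicles, one in Cy5 and one in Cy3. The labels give each follicle an identifier and state no treatment, breed, age, cycle stage or dominance status, so the groups share everything the labels say. They do not state which layers of the follicle were extracted, and in such tissue fewer cells of a type and less RNA per cell cannot be told apart. Each heifer gave 1 follicle, so the p-values rest on the spread between estimated levels of follicles from different animals. That spread holds array error as well as differences between animals. The 2 are not separated in the test.

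An ovarian follicle of this size grows by division of the granulosa cells that line it, inside a theca layer with vessels, matrix and leukocytes. Cells that pass from S phase into mitosis switch on a shared set of genes, many of them under the transcription factor FOXM1, that build the spindle, attach chromosomes to it and split the cell. The 4 ranking genes belong to that set. CCNB1 (cyclin B1) carries the kinase that starts mitosis, PLK1 is a kinase of spindle assembly, BIRC5 (survivin) is a subunit of the chromosomal passenger complex, and UBE2C is the ubiquitin-conjugating enzyme that helps to destroy cyclins at the exit from mitosis.

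All values are levels on the log2 scale, each the fitted ratio of a follicle to the mean of the 16 follicles for that gene, so levels of different genes cannot be compared. The deposited ratios were taken as log2 of Cy5 over Cy3. Neither the base nor the direction is stated; turning every sign would swap the high and low groups and leave each gene's difference between them as it is. The median SE of a level from array error was 0.13. For the typical gene the estimated variance between follicles was 0.10 times that of an array. Array error and the number of follicles both limit the precision of each comparison. The mitotic-high follicles were 31, H893, 46, C22 and C13, with mean marker levels of 0.76, 0.51, 0.50, 0.50 and 0.35. The mitotic-low follicles were 33, C35, C26, C10 and 26, with -0.13, -0.41, -0.49, -0.50 and -0.63. Values are given below in these orders. Just outside the limits lay follicle C12 at 0.27 above and follicle C32 at -0.04 below, so the order was a gradient without a clear break at either limit. J980 stood lowest of all at -1.12 and was also far below the rest for the follicle genes INHBA and FST, at -2.69 and -2.05. With every sign turned it would be the highest for the markers and for both genes, and it would lie beyond the same 5 follicles as before. It had been left out of the groups, but its 3 arrays still entered the estimates of the other follicles.

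As a description of what the ranking used, the difference between the group means (high minus low) was 1.34 for CCNB1, 0.97 for BIRC5, 0.61 for UBE2C and 0.89 for PLK1. CCNB1 ran from 0.47 to 0.99 in the high follicles and from -0.78 to -0.34 in the low ones, with a median SE of a level of 0.11. UBE2C was the narrowest, since follicle C13 stood at -0.00 and follicle 33 at -0.03. Ranking without CCNB1 put follicle 27 in place of 33 in the low group, and ranking without PLK1 put follicle 8 in place of C13 in the high group. Ranking without BIRC5 or without UBE2C gave the same 10 follicles. None of the 4 markers overlapped between the groups, which ranking by their own mean largely builds in. For UBE2C the gap between the groups was smaller than the median SE of a level, 0.10.

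**Figure D1:**
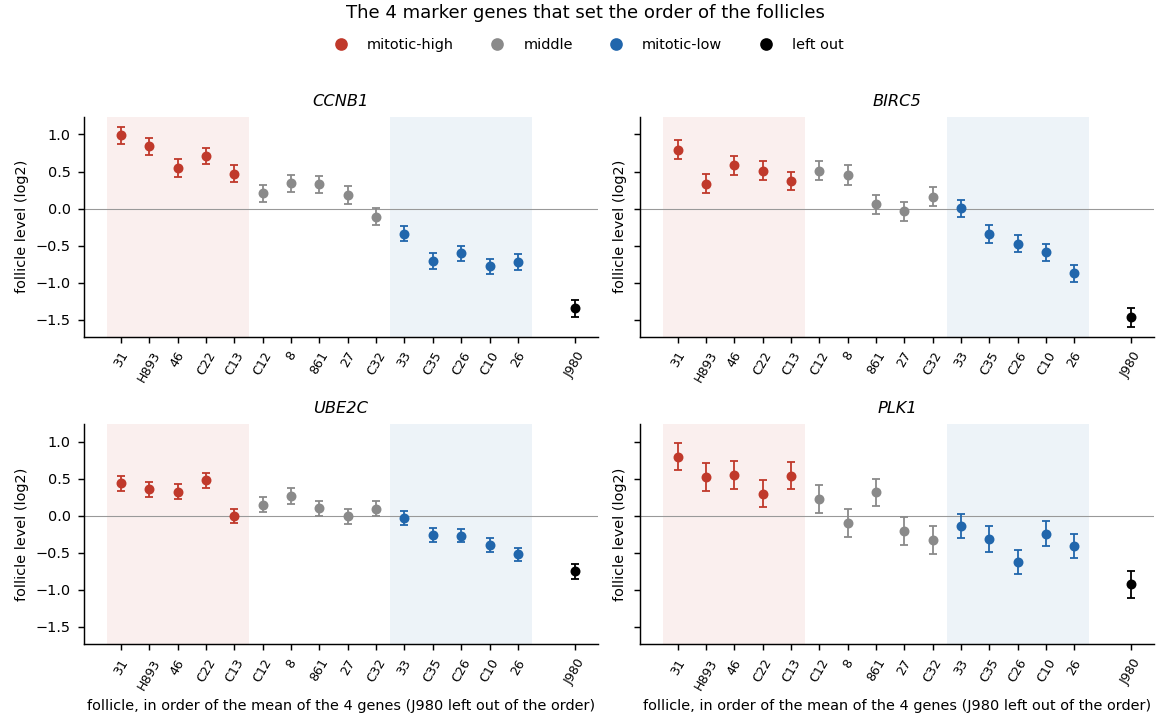
Levels of the 4 ranking genes in each follicle (points, log2; bars, SE from array error over 3 arrays), in order of their mean, with J980 at the right. The mitotic-high follicles on red ground lie above the mitotic-low follicles on blue ground for every marker, and J980 lies below all others.

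Of 9027 genes tested, 210 differed between the groups at an adjusted p under 0.05 (limma on the 10 follicle levels, Benjamini-Hochberg over all genes but the 4 markers). In the mitotic-high follicles 99 genes were higher (1.1% of those tested) and 111 were lower (1.23%). With arrays centred on their means in place of their medians the split was 131 higher and 98 lower. The median difference was 0.43 among the genes called higher and -0.50 among those called lower, against 0.01 over all genes and a median SE of 0.09. Over all genes tested 2.33% were called in either direction, and 53.1% had a positive difference. At an unadjusted p under 0.05 stood 832 higher genes (9.22%) and 807 lower ones (8.94%). The groups did not overlap for 228 higher genes (2.53%) and 213 lower ones (2.36%), and among the called genes this held for 87 of 99 and 102 of 111. On 4 arrays a high and a low follicle were hybridised together, and 178 of the 210 called genes had the direction of their call on all 4. These arrays also entered the levels that gave the calls, so this count is partly built in and is a description. Without the arrays of J980 limma called 101 genes, 91 of them among the 210.

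The length of this list rests on single follicles, above all 31, the highest of the order. Without follicle 31 limma called 32 genes, and without C22 it called 494. Without H893, C26, C35, 26, 33, C13, C10 or 46 it called 59, 59, 74, 87, 93, 107, 121 and 163. Each of these fits left the follicle out of the group test only, and its arrays still entered the levels of the others. The direction and the unadjusted p under 0.05 held for all 210 genes in each of these 10 fits, and the largest adjusted p that any of them reached was 0.13. Each fit reuses the other follicles that selected these genes, so this is partly built in. Without any 1 follicle 29 genes kept their call, 17 of them higher and 12 lower. Of these, 17 were called under each of the other 16 alternatives too. They were KIF20A, KPNA2, FOXM1, CDCA3, SPAG5, BUB1B, RBM48, CDKN2AIPNL, SLC25A33, MDH2, GLRX5 and CCT7, which were higher, and FMOD, TMEM100, RALB, GNAI3 and NR2F2, which were lower. Among other named genes CCNA2, A2ML1 and CTSK were tested in 25 of the 26 fits and kept their calls in all 25. Of the alternatives, scaling the markers chose the same 10 follicles and so kept every call by design. Ranking again without the arrays of J980 repeated the fit without them.

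**Figure D2:**
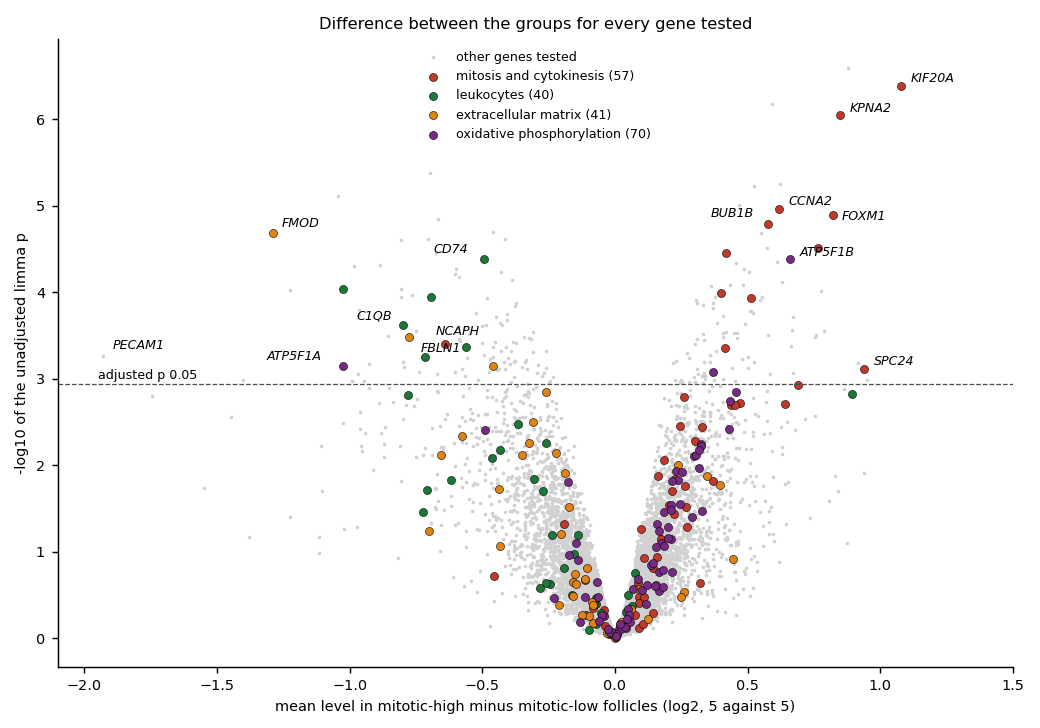
Difference between the group means (log2) against the unadjusted limma p (as -log10) for each of 9027 genes, with members of 4 gene lists coloured and the largest p of a called gene as a dashed line. Mitosis genes lie at the upper right with KIF20A at 1.08, and genes of leukocytes and extracellular matrix lie mostly at the left with FMOD at -1.29.

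Some genes of mitosis and cytokinesis other than the ranking genes were higher in the mitotic-high follicles, and most did not pass the test. Of 57 measured, 11 were called higher and 1 lower, 29 higher and 2 lower reached an unadjusted p under 0.05, and the groups did not overlap for 16 higher ones. Their median difference was 0.20, against 0.01 over all genes, and 46 of 57 were positive (80.7%, against 53.1% of all genes). The share called in either direction was 21.1%, against 2.33% of all genes. The list was chosen with earlier results of these follicles known, and its members are known to be co-expressed with the ranking genes in dividing cells, so the count describes how far the set extends. The count called higher fell to 7 without follicle 31 and rose to 14 without C22.

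KIF20A, the kinesin of the central spindle in cytokinesis, stood at 0.95, 0.62, 0.54, 0.41 and 0.39 in the high follicles and at -0.43, -0.58, -0.44, -0.55 and -0.49 in the low ones. The groups were far apart and the low follicles lay between -0.58 and -0.43. Its difference of 1.08 ± 0.10 (SE, 5 against 5) was the largest among the called higher genes, a 2.11-fold change with a limma adjusted p of 0.00187, and an exact permutation p of 0.00794, the smallest that 252 assignments can give.

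KPNA2, an importin that carries proteins into the nucleus, had the level most like the marker mean over the 15 follicles, with r = 0.98 as a description. It stood at 0.69, 0.49, 0.35, 0.51 and 0.33 against -0.17, -0.38, -0.35, -0.52 and -0.46, a difference of 0.85 ± 0.09 (limma adjusted p = 0.00205). FOXM1, the transcription factor of the G2 and mitosis genes, stood at 0.78, 0.41, 0.66, 0.23 and 0.60 against -0.14, -0.45, -0.40, -0.32 and -0.11, a difference of 0.82 ± 0.11 (limma adjusted p = 0.0105). Neither gene overlapped between the groups. Among the middle follicles FOXM1 ran from -0.66 in follicle 27 to 0.42 in follicle 861.

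CCNA2, the cyclin of S phase and G2, stood at 0.40, 0.50, 0.35, 0.12 and 0.25 against -0.21, -0.42, -0.39, -0.26 and -0.19, a difference of 0.62 ± 0.08 (limma adjusted p = 0.00977). BUB1B, a kinase of the spindle checkpoint, stood at 0.50, 0.18, 0.22, 0.43 and 0.38 against -0.18, -0.15, -0.16, -0.26 and -0.42, a difference of 0.58 ± 0.08 (limma adjusted p = 0.0113). CDCA3, a factor of mitotic entry, stood at 0.40, 0.31, 0.48, 0.53 and 0.10 against -0.13, -0.22, -0.56, -0.56 and -0.55, a difference of 0.77 ± 0.11 (limma adjusted p = 0.0133). None of the 3 overlapped between the groups, and each was higher on all 4 arrays that paired a high with a low follicle.

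Spindle and kinetochore genes of the list showed the same direction with less certainty. KIF4A, a kinesin bound to chromosomes, differed by 0.42 ± 0.06 (limma adjusted p = 0.0138) and kept its call without any 1 follicle but not with 7 against 7 (adjusted p = 0.0565). RACGAP1, a subunit of the centralspindlin complex, differed by 0.51 ± 0.09 (adjusted p = 0.0205), with an adjusted p of 0.0657 without follicle 31 and 0.0531 without C26. TROAP, a spindle protein, differed by 0.40 ± 0.07 on average, but its 3 features ranged from 0.05 to 0.97, and its adjusted p was 0.0591 without follicle 31. SPC24, a subunit of the NDC80 complex that binds kinetochores to the spindle, stood at 0.94, 0.79, 0.19, 0.71 and -0.09 against -0.49, -0.08, -0.74, -0.63 and -0.23. Its groups just overlapped, and its call (difference 0.94 ± 0.20) was kept in 3 of 10 fits without 1 follicle (adjusted p of up to 0.106 without 31). The kinase MELK differed by 0.42 ± 0.08 and kept its call in 1 of 10, without follicle C22, with an adjusted p of up to 0.0878 without C26. SPAG5 (astrin), a spindle protein outside the list that was named for its likeness to the marker mean (r = 0.91), differed by 0.59 ± 0.06 (limma adjusted p = 0.002), with 3 features between 0.09 and 1.32.

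**Figure D3:**
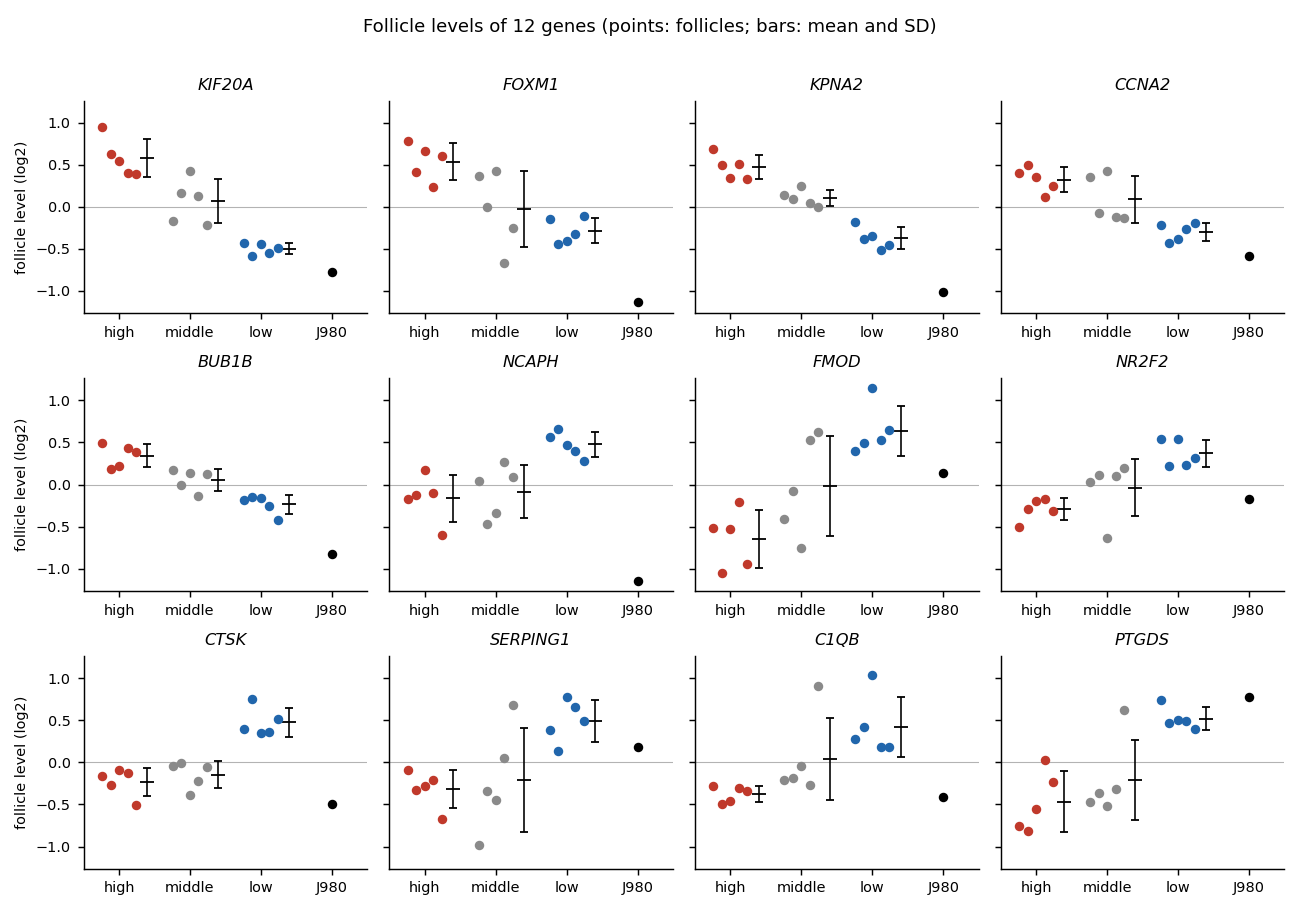
Levels of 12 genes (log2) in the 5 mitotic-high, 5 middle and 5 mitotic-low follicles and in J980, with the mean and SD of each group beside the points. KIF20A, FOXM1, KPNA2, CCNA2 and BUB1B are higher in the high follicles, and NCAPH, FMOD, NR2F2, CTSK, SERPING1, C1QB and PTGDS are lower there, with no overlap between the high and low groups in any of the 12.

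Several well-known mitotic genes did not pass the threshold. INCENP, the scaffold of the chromosomal passenger complex, differed by 0.69 ± 0.16 with an adjusted p of 0.0503, and its groups did not overlap. AURKA, the kinase of spindle poles, differed by 0.26 ± 0.06 (adjusted p = 0.0592), and AURKB by 0.30 ± 0.09 (adjusted p = 0.0945). CENPE, a kinetochore motor, differed by 0.64 ± 0.16 (adjusted p = 0.0644) and TPX2 by 0.45 ± 0.11 (adjusted p = 0.0655). Others lay near 0, among them CCNB2 at 0.04 ± 0.15, NDC80 at -0.04 ± 0.05, ANLN at -0.01 ± 0.09 and BUB1 at -0.11 ± 0.08. MKI67, the gene of the Ki-67 antigen, had a difference of -0.11 ± 0.17. CENPF stood at -0.19 ± 0.09 over 3 features, all of them negative.

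NCAPH, a subunit of the condensin complex that compacts chromosomes, was the only member of the list called lower. It stood at -0.17, -0.12, 0.17, -0.10 and -0.60 in the high follicles and at 0.57, 0.66, 0.47, 0.40 and 0.28 in the low ones. The groups did not overlap, and the difference was -0.64 ± 0.13 (limma adjusted p = 0.0327, on 1 feature). The call was kept in 4 of 10 fits without 1 follicle, with an adjusted p of up to 0.085 without follicle 31. In J980, which had the lowest markers, NCAPH stood at -1.15. SMC3, a cohesin subunit named after its value was seen, was also lower, at -0.39 ± 0.06 (adjusted p = 0.0183), with an adjusted p of 0.0521 without follicle 31. It was also lost with 1 feature per gene and with 4 against 4 follicles, and its limma adjusted p reached 0.438 among the alternatives.

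Genes of DNA replication and S phase moved less. Of 58 measured, 2 were called higher and 0 lower (3.45%, against 2.33% of all genes). Positive differences were found for 41 (70.7%, against 53.1% of all genes), and the median difference was 0.06. An unadjusted p under 0.05 was reached by 12 higher and 1 lower ones, where 9.22% of all genes were higher and 8.94% lower. EZH2, the histone methyltransferase of the Polycomb complex, stood at 0.33, 0.16, 0.23, 0.14 and 0.23 against -0.02, -0.12, -0.13, -0.11 and -0.06. There was no overlap, with a difference of 0.31 ± 0.05 (limma adjusted p = 0.0213), but its 2 features gave 0.03 and 0.59. RPA3, the smallest subunit of the protein that coats single-stranded DNA, differed by 0.58 ± 0.13 (adjusted p = 0.0446). Without follicle 31 neither was called, with adjusted p-values of 0.0648 and 0.115.

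For the replicative helicase no difference was detectable. MCM2, MCM3 and MCM6 had differences of -0.00 ± 0.14, -0.01 ± 0.10 and -0.00 ± 0.08, and MCM4 had the largest of the 6 subunits, 0.17 ± 0.07 with an adjusted p of 0.218. PCNA, the sliding clamp of the replication fork, stood at 0.60, -0.16, 0.01, 0.42 and 0.37 against 0.02, 0.02, -0.28, -0.43 and -0.10. Its groups overlapped, and the difference was 0.40 ± 0.15 (adjusted p = 0.182). The replication list was not tested against the mitosis list.

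Among 19 genes of histones and chromatin, 0 were called by limma, although 9 higher and 2 lower had an unadjusted p under 0.05 and the median was 0.16. H2AZ1, a histone variant, had the largest difference, 0.65 ± 0.17 (adjusted p = 0.0792). Among 21 regulators of G1 and arrest 0 were called, with 3 higher and 2 lower at an unadjusted p under 0.05 and a median of -0.04. CCND2, the D-type cyclin of granulosa cells, differed by 0.31 with an adjusted p of 0.211. BTG1, an inhibitor of proliferation, differed by -0.50 with an adjusted p of 0.0944.

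Most genes of oxidative phosphorylation and of mitochondrial ribosomes had positive differences, though few passed the test. Of 70 genes of oxidative phosphorylation 2 were called higher and 1 lower (4.29%, against 2.33% of all genes). An unadjusted p under 0.05 was reached by 22 higher and 3 lower ones. Positive differences were found for 54 (77.1%, against 53.1% of all genes), and the median was 0.15. Of 62 mitochondrial ribosomal proteins 3 were called higher and 0 lower (4.84%), and 79.0% were positive. An unadjusted p under 0.05 was reached by 15 higher and 3 lower ones, and the median was 0.13. Without 1 follicle the count called higher ran from 1 to 4 (without 46) in the former list and from 0 (without H893) to 4 (without C22) in the latter. The 61 cytosolic ribosomal proteins had a median of -0.06, with 0 called higher and 2 called lower (3.28%, against 2.33% of all genes). These were RPL3 and RPL14 (adjusted p of 0.0848 and 0.0838 without follicle 31). The signs of RPL3 and RPL14 depend on the feature, since their 7 and 6 features ranged from -1.43 to 0.11 and from -0.99 to 0.02.

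MDH2, the malate dehydrogenase of the mitochondrial matrix, stood at 0.36, 0.11, 0.04, 0.42 and 0.30 in the high follicles and at -0.19, -0.25, -0.41, -0.39 and -0.40 in the low ones. Its cytosolic partner in the malate-aspartate shuttle, MDH1, stood at 0.29, 0.37, 0.17, 0.11 and 0.31 against -0.05, -0.19, -0.35, -0.40 and -0.28. Neither overlapped, and the differences were 0.57 ± 0.08 (limma adjusted p = 0.0133) and 0.50 ± 0.08 (adjusted p = 0.0161). Both features of each gene were positive. The 2 genes were named after their values were seen. Of 21 measured genes of the citrate cycle and malate-aspartate shuttle 2 were called higher and 0 lower. Positive differences were found for 11 and negative ones for 10 (52.4% positive, against 53.1% of all genes), and the median was 0.03. MDH1 had an adjusted p of 0.0521 without follicle 31.

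ATP5F1B, the beta subunit of ATP synthase, stood at 0.48, 0.43, 0.10, 0.13 and 0.52 against -0.33, -0.39, -0.48, -0.29 and -0.15, a difference of 0.66 ± 0.10 (limma adjusted p = 0.0151) that held without any 1 follicle and was lost with 4 against 4 (adjusted p = 0.0598). The groups did not overlap. The alpha subunit, ATP5F1A, was called in the other direction, at -1.03 ± 0.22 (adjusted p = 0.0418), with 2 features at -1.75 and -0.31. It kept its call in 2 of 10 fits without 1 follicle, with an adjusted p of up to 0.11 without follicle 31. Its level followed the immunoglobulin gene IGHG1 with r = 0.99 over the 15 follicles, which is described with that group. SLC25A33, a mitochondrial carrier of pyrimidine nucleotides, was higher by 0.61 ± 0.09, and GLRX5, a protein of iron-sulfur cluster assembly, by 0.55 ± 0.08. Both kept their calls without any 1 follicle, and GLRX5 stood at 0.24 in J980.

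Other called genes of the same compartment were less stable. MRPS16 was higher by 0.55 ± 0.09 and was lost only without follicle H893 (adjusted p = 0.0532). MRPL42 was higher by 0.41 ± 0.08 and MRPL2 by 0.92 ± 0.19, and their largest adjusted p without 1 follicle was 0.0772 and 0.101. Of the import machinery of mitochondria, 2 of 19 measured genes were called (10.5%, against 2.33% of all genes). They were TIMM10 at 0.76 ± 0.15 and TOMM22 at 0.30 ± 0.06, both lost without follicle 31 (adjusted p of 0.0842 and 0.0967). The import list was drawn up after values were seen, as were the lists of nucleotide synthesis, citrate cycle and complement, and their counts support nothing. Of 16 genes of nucleotide synthesis MTHFD1L (0.67 ± 0.13), GART (0.50 ± 0.10) and GMPS (0.42 ± 0.08) were called higher (18.75%, against 2.33% of all genes). They are enzymes of folate, purine and guanine nucleotide synthesis, and all 3 were lost without follicle 31 (adjusted p of 0.0836, 0.104 and 0.0838).

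**Figure D4:**
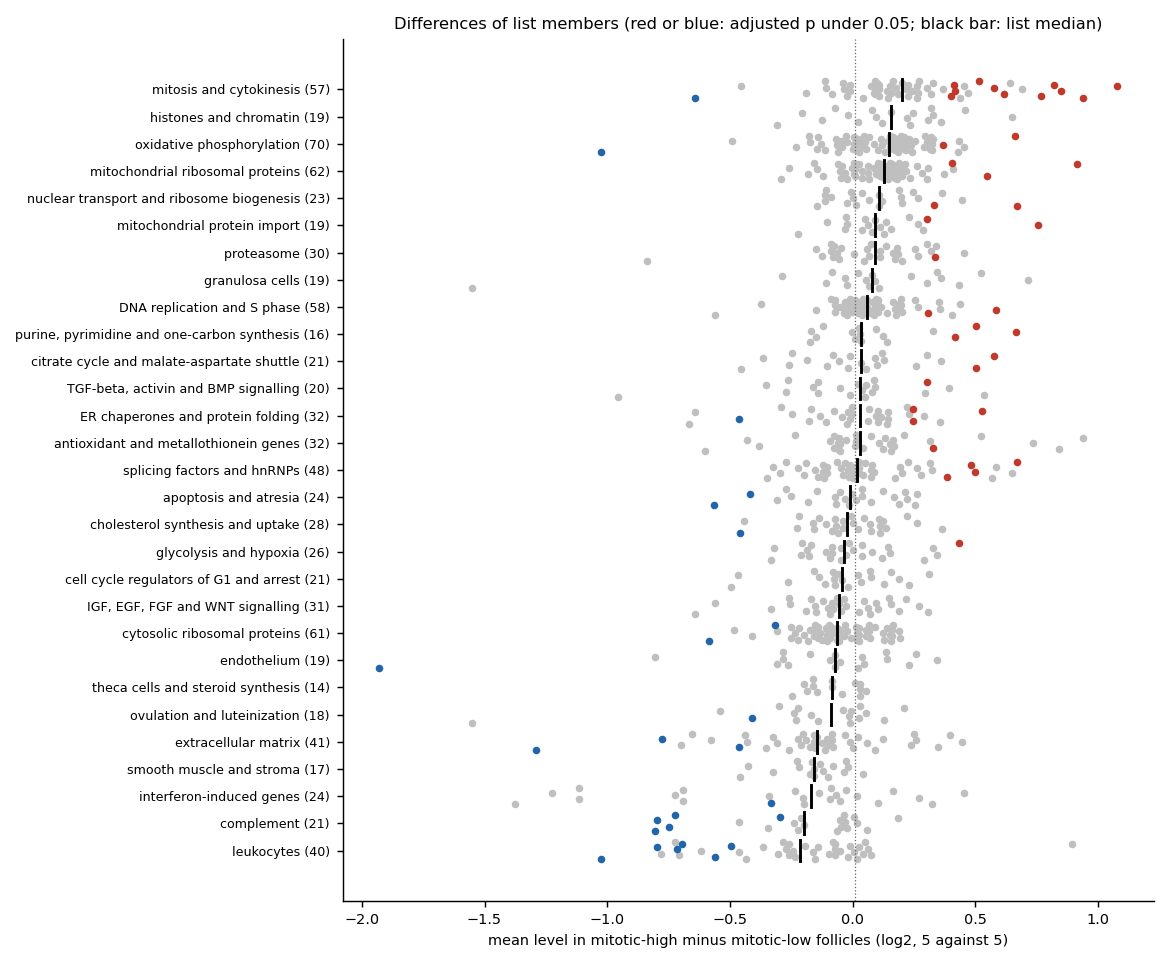
Difference between the group means (log2) of each measured member of 29 gene lists with at least 14 measured genes, ordered by their median (black bars), with called members in red (higher) or blue (lower). The median of the mitosis list is 0.20 and that of the leukocyte list -0.21, and the dotted line marks the median of all genes at 0.01.

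In RNA processing, 26 of 48 splicing genes had positive differences (54.2%, against 53.1% of all genes), with a median of 0.02. An unadjusted p under 0.05 was reached by 14 higher and 3 lower ones, where 9.22% of all genes were higher and 8.94% lower. Called were 4 higher and 0 lower (8.33%, against 2.33% of all genes). SRSF9 (0.48 ± 0.08), SRSF1 (0.50 ± 0.11), HNRNPAB (0.67 ± 0.12) and SNRPC (0.39 ± 0.07), proteins of splice-site choice and of the U1 particle, were these 4, and 0 of the 48 were called without follicle 31 (adjusted p of 0.0535 for SRSF9 and 0.0716 to 0.0837 for the others). The count was 1 without C10, C26, C35 or 33 and 2 without H893 or C13. CSE1L, which returns importins such as KPNA2 to the cytoplasm, was higher by 0.33 ± 0.06 (adjusted p = 0.0304). POLR1B, a large subunit of the polymerase that makes ribosomal RNA, was higher by 0.67 ± 0.15 (adjusted p = 0.0446), and both were lost without follicle 31 (adjusted p of 0.0848 and 0.103) or H893.

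In protein folding, CCT7, a subunit of the cytosolic chaperonin, stood at 0.46, 0.33, 0.19, 0.30 and 0.18 against -0.22, -0.26, -0.24, -0.30 and -0.14. High and low follicles lay apart, and the difference of 0.53 ± 0.06 (limma adjusted p = 0.00763) kept its call under each alternative tried. CCT5 of the same complex had 2 features at -0.11 and 0.63, so its call (0.25 ± 0.06) depends on the feature, and it had an adjusted p of 0.128 without follicle 31. DNAJB11, a chaperone of the endoplasmic reticulum, was lower at -0.46 ± 0.06 (adjusted p = 0.0116), and was lost without the arrays of J980 (adjusted p = 0.0541) and with array error (adjusted p = 0.184). Of 30 proteasome genes 1 was called (3.33%, against 2.33% of all genes), PSMD8 at 0.34 (adjusted p of 0.116 without follicle 31). An unadjusted p under 0.05 was reached by 10 higher and 1 lower ones.

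The largest called higher genes outside these lists had little in common by name. RBM48, an RNA-binding protein, stood at 0.78, 0.51, 0.50, 0.43 and 0.35 against -0.33, -0.44, -0.30, -0.35 and -0.39, with no overlap. Its difference of 0.88 ± 0.08 had the same adjusted p as KIF20A, 0.00187, and its r with the marker mean was 0.92. CDKN2AIPNL differed by 0.62 ± 0.08 (adjusted p = 0.00763). RPS6KA6, a ribosomal S6 kinase, had the second place by size at 0.95 ± 0.21, but its groups overlapped, since C13 stood at -0.32, and the call was kept in 1 of 10 fits without 1 follicle (adjusted p of 0.115 without 31). B3GALNT2, CYB5B and SARM1 differed by 0.78 ± 0.13, 0.79 ± 0.15 and 0.76 ± 0.15, and each was lost without follicle 31 (adjusted p of 0.0521, 0.0837 and 0.0838).

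A few genes of extracellular matrix were lower in the mitotic-high follicles, and most did not pass the test. Of 41 measured, 3 were called lower and 0 higher (7.32%, against 2.33% of all genes). An unadjusted p under 0.05 was reached by 13 lower and 3 higher ones. Negative differences were found for 30, so 26.8% were positive, against 53.1% of all genes, and the median was -0.15. The count called lower was 1 without 31, H893, C13, C10, C26 or 33 and 5 without 46. FMOD, the collagen-binding proteoglycan fibromodulin, stood at -0.51, -1.05, -0.52, -0.21 and -0.95 in the high follicles and at 0.39, 0.49, 1.15, 0.52 and 0.65 in the low ones. The groups did not overlap, and the difference of -1.29 ± 0.18 (limma adjusted p = 0.0116), a 2.45-fold change, kept its call under each alternative tried. The middle follicles divided, with 27 and C32 at 0.53 and 0.62 and the other 3 below 0.

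FBLN1, a matrix glycoprotein, was lower at -0.77 ± 0.15 (adjusted p = 0.0304), with all 4 features negative. COL6A1, a chain of type VI collagen, was lower at -0.46 ± 0.10 (adjusted p = 0.0419). Both were lost without follicle 31, with adjusted p-values of 0.0836 and 0.11, and without 6 other follicles each. Other collagen and proteoglycan genes did not pass, among them COL6A2 at -0.26 (adjusted p = 0.0556), COL3A1 at -0.32 (adjusted p = 0.0974) and DCN at -0.58 (adjusted p = 0.0903). Among 17 genes of smooth muscle and stroma 0 were called, 16 were negative, and 5 lower and 0 higher had an unadjusted p under 0.05. In the high follicles their mean level ran from -0.14 to 0.04 and in the low ones from 0.05 to 0.16.

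NR2F2, CTSK and TMEM100, single genes outside the lists, were also lower. NR2F2, an orphan nuclear receptor of mesenchymal cells, stood at -0.50, -0.29, -0.20, -0.17 and -0.32 against 0.54, 0.22, 0.54, 0.23 and 0.31, a difference of -0.66 ± 0.09 (limma adjusted p = 0.0108). CTSK, the collagen-cutting protease cathepsin K, stood at -0.16, -0.27, -0.10, -0.12 and -0.51 against 0.39, 0.76, 0.35, 0.36 and 0.51, a difference of -0.71 ± 0.10 (adjusted p = 0.0119). TMEM100, a membrane protein of vessels, stood at -0.60, -0.69, -0.54, -0.02 and -0.60 against 0.84, 0.36, 0.54, 0.60 and 0.43, a difference of -1.04 ± 0.13 (adjusted p = 0.0087). None of the 3 overlapped, and each kept its call without any 1 follicle.

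PTGDS, which makes prostaglandin D2, stood at -0.76, -0.81, -0.55, 0.02 and -0.23 in the high follicles and at 0.74, 0.46, 0.50, 0.49 and 0.39 in the low ones. With no overlap, the difference was -0.99 ± 0.15 (limma adjusted p = 0.0156, and 0.0514 without moderation). In J980 it stood at 0.78, higher than in any of the 10. PTGES, which makes prostaglandin E2, was lower at -0.41 ± 0.07 (adjusted p = 0.027) and was lost without follicle 31 (adjusted p = 0.0807). It was the only call among 18 genes of ovulation and luteinization (5.56%, against 2.33% of all genes). The signalling genes RALB and GNAI3, a small GTPase and a G protein subunit, were lower at -0.81 ± 0.12 and -0.67 ± 0.10, and both kept their calls throughout. PRKAA1, a catalytic subunit of the AMP-activated kinase, was lower at -1.22 ± 0.20 (adjusted p = 0.0197) but was lost without follicle 31 (adjusted p = 0.0648) or H893 (adjusted p = 0.0505).

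Some complement genes and the protease inhibitors A2ML1 and A2M were called lower in the mitotic-high follicles. Of 21 complement genes, a list drawn up after values were seen, 5 were called lower and 0 higher (23.8%, against 2.33% of all genes). The count called lower was 1 without 31, H893 or C13, 2 without 26, C10, C26 or 33 and 3 without C35. SERPING1, the inhibitor of the C1 proteases, stood at -0.09, -0.33, -0.29, -0.21 and -0.68 in the high follicles and at 0.39, 0.14, 0.77, 0.66 and 0.49 in the low ones. High and low follicles lay apart, with a difference of -0.81 ± 0.13 (limma adjusted p = 0.0197) that held without any 1 follicle. It was lost with 1 feature per gene (-0.53, adjusted p = 0.102), without the arrays of J980 (adjusted p = 0.055), without moderation (adjusted p = 0.0578) and with 4 against 4 follicles (adjusted p = 0.057). The proteases it blocks were also lower, C1S at -0.73 ± 0.15 (adjusted p = 0.0387) and C1R at -0.29 ± 0.06 (adjusted p = 0.0446), and so was C7, a part of the membrane attack complex, at -0.75 ± 0.14 (adjusted p = 0.0304). Without follicle 31 these 3 had adjusted p-values of 0.098, 0.115 and 0.0784. C3, the central component, did not pass, at -0.20 ± 0.08 (adjusted p = 0.231).

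A2ML1, a protease trap, stood at -0.31, -0.41, -0.12, -0.38 and -0.07 against 0.49, 0.43, 0.45, 0.28 and 0.55, with no overlap. Its difference of -0.70 ± 0.08 (limma adjusted p = 0.00756) was the most certain among the lower genes and held without any 1 follicle. A2M, the related alpha-2-macroglobulin, was lower at -0.76 ± 0.15 (adjusted p = 0.0304), but its 2 features gave -1.36 and -0.16, and it was lost without C26 (adjusted p = 0.0776) and 4 other follicles. Within the middle group A2ML1 ran from -0.84 in C12 to 0.70 in follicle 27.

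Some leukocyte genes were lower in the mitotic-high follicles, and most did not pass the test. Of 40 measured, 6 were called lower and 0 higher (15%, against 2.33% of all genes). An unadjusted p under 0.05 was reached by 16 lower and 1 higher ones. Negative differences were found for 32, so 20% were positive, against 53.1% of all genes, and the median was -0.21. The mean level of the list ran from -0.21 to -0.08 in the high follicles and from -0.05 to 0.39 in the low ones, with the highest value in C26. The called genes were CD74, BOLA-DQA1 and BOLA-DRB3 of antigen presentation by class II, and LAPTM5, CTSS and C1QB of macrophages and other leukocytes. Array ratios give no absolute level, so whether a marker is expressed at all cannot be read from them. The part of leukocyte number in these differences was not tested.

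C1QB, a chain of the first complement component made by macrophages, stood at -0.28, -0.49, -0.46, -0.31 and -0.34 in the high follicles and at 0.28, 0.42, 1.04, 0.19 and 0.18 in the low ones. There was no overlap, with a difference of -0.80 ± 0.15 (limma adjusted p = 0.0283) that was kept in 6 of 10 fits without 1 follicle, with an adjusted p of up to 0.0722 without H893. C1QC differed by -0.46 ± 0.14 (adjusted p = 0.118), while C1QA differed by -0.05 ± 0.08. BOLA-DQA1 was lower at -1.02 ± 0.17 (adjusted p = 0.0197) and LAPTM5, a lysosomal protein of blood cells, at -0.69 ± 0.12 (adjusted p = 0.0205). CD74, the invariant chain, was lower at -0.49 ± 0.07 (adjusted p = 0.0151), but its 5 features did not share 1 sign and reached 0.17. The count of leukocyte genes called lower was 1 without follicle 31, 2 without H893, 3 without C13 or C35 and 8 without C22. CD74 was the 1 gene kept throughout, and BOLA-DQA1 and LAPTM5 both had an adjusted p of 0.0648 without follicle 31.

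The 3 largest differences among the called genes were those of PECAM1, CTSH and the immunoglobulin heavy chain IGHG1. IGHG1, averaged over 61 features of a multigene family, stood at -1.12, -0.94, -0.84, -0.34 and -0.68 in the high follicles and at 0.54, 0.15, 1.73, -0.25 and 0.93 in the low ones. Its difference was -1.40 ± 0.32 (limma adjusted p = 0.0482), and 0.127 without follicle 31. With 1 feature per gene in place of the mean the difference was -0.10 (adjusted p = 0.604), so the value rests on which features are averaged. The call was kept in 9 of the 26 alternatives, among them scaled markers, which kept every call by design. Of the called genes 9 others had r above 0.9 with IGHG1 over the 15 follicles, which fixes their direction as lower. Their differences ran from -0.43 for NUCB1 to -1.93 for PECAM1. They were CTSH (r = 0.99), IGCGAMMA (r = 0.99), PECAM1 (r = 0.99), ATP5F1A (r = 0.99), ZC3H7A (r = 0.98), HEXD (r = 0.98), SDR39U1 (r = 0.96), BOLA-DRB3 (r = 0.92) and NUCB1 (r = 0.92). These correlations were not tested and share the arrays and the errors of the loop.

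PECAM1, the endothelial adhesion molecule CD31 that leukocytes also carry, stood at -1.23, -1.24, -1.22, -0.55 and -1.09 against 0.79, 0.26, 2.38, -0.22 and 1.10. The difference of -1.93 ± 0.40 (limma adjusted p = 0.0386) was the largest of all, and the groups did not overlap. Among the high follicles 4 lay between -1.24 and -1.09 and C22 at -0.55, and the low ones ran from -0.22 in C10 to 2.38 in C26. The call was kept in 3 of 10 fits without 1 follicle, with an adjusted p of 0.0999 without follicle 31. It was the only call among 19 endothelial genes (5.26%, against 2.33% of all genes), whose median was -0.07. CTSH, the protease cathepsin H, was lower at -1.67 ± 0.37 (adjusted p = 0.0461, and 0.12 without follicle 31), with groups that overlapped. ATP5F1A, HEXD, ZC3H7A and SDR39U1 each had features that disagreed in size, such as -1.46 and -0.02 for ZC3H7A. The other plasma cell genes did not pass, among them JCHAIN at -0.87 (adjusted p = 0.0988) and IGHM at -0.93 (adjusted p = 0.0538).

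Interferon-induced genes had a median of -0.17 over 24 measured, with 1 called lower (4.17%, against 2.33% of all genes). This was XAF1 at -0.33 ± 0.08 (adjusted p = 0.0497, and 0.133 without follicle 31). An unadjusted p under 0.05 was reached by 9 lower and 1 higher ones. The mean of the list overlapped widely between the groups, from -0.25 to -0.06 in the high and from -0.30 to 0.51 in the low follicles. Erythrocyte genes showed 0 calls by limma among 7, with 0 at an unadjusted p under 0.05 and a median of 0.03. The oocyte genes ZP2 and ZP3 differed by 0.05 and -0.24 and did not pass.

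For genes of the follicle's own endocrine cells no difference passed the test in these 10 follicles. Among 19 granulosa genes limma called 0, with 4 higher and 1 lower at an unadjusted p under 0.05 and a median of 0.08. The differences in this list ran from -1.55 to 0.72. AMH, the hormone of small growing follicles, stood at 0.37, -0.11, 0.92, 0.20 and -0.26 in the high follicles and at -0.55, -0.58, -0.28, -0.55 and -0.49 in the low ones. The groups did not overlap, but the difference of 0.72 ± 0.19 had a limma adjusted p of 0.077. CYP19A1, the aromatase that makes estradiol, differed by -0.02 ± 0.06 and FSHR, the receptor of follicle-stimulating hormone, by 0.09 ± 0.10.

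INHBA and FST, an activin subunit and the activin inhibitor follistatin, differed by 0.35 ± 0.17 and 0.44 ± 0.17, with adjusted p-values of 0.31 and 0.207. In J980 they stood at -2.69 and -2.05, far below any of the 10 follicles. INHA, the inhibin subunit, differed by -0.29 ± 0.23 and IGFBP2 by 0.27 ± 0.25. Among 14 genes of theca and steroid synthesis limma called 0, with 0 higher and 1 lower at an unadjusted p under 0.05 and a median of -0.08. HSD3B1 and CYP11A1, enzymes of progesterone synthesis, differed by -0.20 ± 0.13 and -0.08 ± 0.15. SMAD2, which carries the activin signal, was called higher at 0.30 ± 0.07 (adjusted p = 0.0482), but its 3 features ranged from 0.04 to 0.57 and the call was kept in 1 of 10 fits without 1 follicle (adjusted p of 0.127 without 31). Among 24 genes of apoptosis and atresia 2 were called (8.33%, against 2.33% of all genes). BCL2L1, which holds back apoptosis, and BNIP3L, a receptor for the removal of mitochondria, were lower at -0.57 ± 0.11 and -0.42 ± 0.09. Both were lost without follicle 31 (adjusted p of 0.0737 and 0.106).

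**Figure D5:**
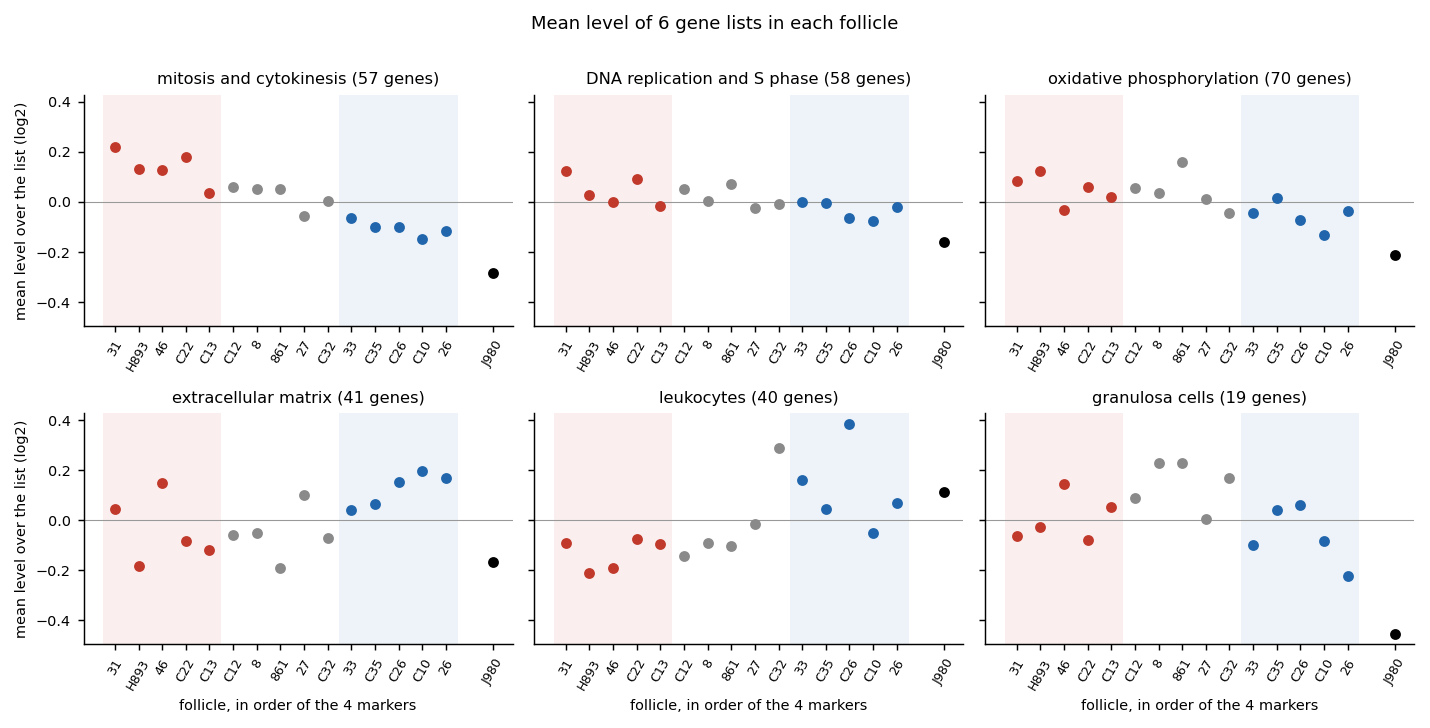
Mean level (log2) of 6 gene lists in each follicle, in the order of the 4 markers, with J980 at the right. The mitosis list falls along the order from 0.22 in follicle 31 to between -0.15 and -0.06 in the low group, the leukocyte list is highest in C26 at 0.39, and the granulosa list overlaps between the groups.

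The middle follicles and J980 took no part in the test, although they were ranked by the same markers and share arrays with the groups, so their values are given as a description. The mean of the 5 middle follicles lay between the group means for 98 of the 99 called higher genes and 105 of the 111 called lower genes, against 43.8% of all genes tested. Called genes were selected for a wide gap, while the median absolute difference of all genes was 0.10. A wide gap leaves more room for a mean to lie between, so the contrast with all genes is largely built in. J980, whose markers were the lowest, lay below the mean of the low group in 64 of 99 called higher genes (64.6%, against 43.2% of all genes with a positive difference). For the called lower genes it lay above the mean of the low group in 18 of 111 (16.2%, against 45.4% of all genes with a negative difference). The wide gap of called genes also leaves less room beyond the mean of the low group, so these shares cannot be set evenly against those of all genes. J980 lay beyond that mean for most called higher genes, as for KPNA2 at -1.01 and FOXM1 at -1.13. For most called lower genes it did not, as for CTSK at -0.50 and NR2F2 at -0.17. It lay on the low group's side of the high-group mean in 86 of 99 called higher genes and 78 of 111 called lower genes. Its mean level of the mitosis list was -0.28 and that of the matrix list -0.17, while that of the leukocyte list was 0.11.

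Over the 15 follicles the genes most like the marker mean were KPNA2, CDCA3 (r = 0.93), KIF20A (r = 0.93), RBM48 (r = 0.92) and SPAG5. The most opposite were ICA1 (r = -0.89), SVEP1 (r = -0.87), LGALS9 (r = -0.86), NUCB1 (r = -0.86) and CD34 (r = -0.86). ICA1 did not pass, at -0.22 ± 0.06 (adjusted p = 0.0784). SVEP1, a matrix and adhesion protein, was lower at -0.56 ± 0.12, and CD34, an antigen of endothelial and stromal cells, at -0.31 ± 0.06, with both features negative. Without follicle 31 both genes were lost (adjusted p of 0.116 and 0.0836), and both were also lost with 1 feature per gene. Array features without a gene name held calls at a share similar to that of all features. Tested together with all features, 36 of 3564 unnamed features were higher and 67 were lower. That made 103 called, against 453 of all 16353 features.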

How the data were processed

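Total RNA of 16 follicles was compared on 24 arrays with 2 dyes. The authors deposited log ratios, taken here as log2, 1 per feature and array, from arrays scanned with GenePix Pro (4.0.1.12, per the submitters' processing notes). Background correction, normalization, log base and ratio direction were not given in the sources used here. A natural logarithm cannot be told apart from log2; log10 would need ratios beyond the scanner's range. Features took symbols from the platform annotation. Of 17418 features 13605 carried 1 symbol, 829 several and 2984 none, and only the first were used for genes.

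Each array was centred on its median (array SD 0.28 to 0.54, 16094 to 17028 values per array), features of a gene were averaged, and follicle levels were fitted by least squares with a dye term (8 residual degrees of freedom, genes on at least 20 arrays). The groups of 5 were compared with limma 3.58.1 (lmFit, eBayes) in R 4.3.3, with Benjamini-Hochberg adjustment and a threshold of 0.05. Levels of follicles that share arrays share error. In 20 simulations without any difference, 6.98% of genes on average had an unadjusted p under 0.05, and 1 simulation held a false call. Tested on simulated data, the fit recovered 0.5%, 50.5% and 89% of 200 genes changed by 0.25, 0.5 and 1, with 0, 9 and 9 false calls among 9031 genes. All these simulations drew each gene independently and kept the groups fixed. They therefore cannot give the rate of false calls for groups chosen by measured genes that vary together with others. Exact permutation p-values used 252 assignments.

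Named genes were the 12 called with the largest difference in each direction, from every list the 3 measured genes with the smallest p, any member of the mitosis and replication lists, 10 genes of endocrine function and immunoglobulin, and the 5 with the highest and the 5 with the lowest correlation with the marker mean; further genes were named after their values were seen. The members and the lists (28, with 845 measured genes, and 4 added later) were chosen with earlier results of these data known. Alternatives are given at the end. Promoter sequences were not used here.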

Additional observations from a re-analysis of the deposited data

Results flagged for a closer look

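Among the groups of 5 follicles of the genes named here, 264 were examined for 1 follicle far from the others, and 10 stood out by Dixon's ratio of gap to range. Chance marks about 1 in 20 such groups. In the mitotic-low group, follicle C26 was far above the others for BOLA-DQA1 (1.21, next 0.43) and for C1QB (1.04, next 0.42), both among the genes that were lower in the mitotic-high follicles. Follicle C10 was far below the others of that group for MCM4 (-0.22, next -0.03) and above them for SMC3 (0.37, next 0.23). In the mitotic-high group, follicle C22 was far above the others for PECAM1 (-0.55, next -1.09), PRKAA1 (-0.00149, next -0.70) and TMEM100 (-0.0242, next -0.54), and far below them for GLRX5 (0.0278, next 0.21). Follicle H893 was the lowest of that group by a wide gap for RACGAP1 (0.0592, next 0.32) and COL6A2 (-0.29, next -0.09). No explanation of these values was tested.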

How the results depend on the processing

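The count of 210 called genes (99 higher, 111 lower) depended on the fit. It was 89 (45 higher, 44 lower) with arrays brought to one scale, 62 (40 and 22) without limma's moderation, 101 (51 and 50) without the arrays of J980, the same after ranking again, and 123 (62 and 61) with levels whitened for the loop. It was 360 (156 and 204) with array error in place of the spread between follicles, 360 (186 and 174) with a slope on the marker mean over 15 follicles, 47 (27 and 20) with 4 against 4 follicles and 559 (262 and 297) with 7 against 7. Without 1 follicle it ran from 32 (without 31) to 494 (without C22), with 19 to 217 higher and 13 to 277 lower. It was within 1.5 times the main count with array means, values on all arrays, no minimum of arrays, no dye term, 1 feature per gene, markers scaled to SD 1, and, chosen after seeing the data, only features on at least 20 arrays. With 1 feature per gene the sign turned for CCT5 (-0.11), RPL3 (0.11), RPL14 (0.0179) and CD74 (0.17). The cause of these changes was not tested. No paired analysis was possible because the follicle identifiers carry no number shared between the groups. Ratios give no absolute signal, so genes near background could not be told apart from the rest.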

Other observations

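Metabolic and signalling lists outside the main text held calls at shares close to the 2.33% of all genes called in either direction. Among 26 genes of glycolysis and hypoxia limma called 1 (3.85%), GPI, the isomerase of glucose 6-phosphate, which was higher in the mitotic-high follicles at 0.43. It was lost without follicle 31 (adjusted p = 0.0639), with 1 feature per gene and with 4 against 4 follicles. Among 28 genes of cholesterol synthesis and uptake it called 1 (3.57%), NPC2, which moves cholesterol out of lysosomes, at -0.46. Among 32 antioxidant and metallothionein genes it called 1 (3.12%), TXNRD1, a thioredoxin reductase, at 0.33. NPC2 and TXNRD1 each kept the call in 1 of 10 fits without 1 follicle, with an adjusted p of up to 0.0918 without H893 and 0.104 without C26. Among 31 genes of IGF, EGF, FGF and WNT signalling limma called 0, with 0 higher and 5 lower at an unadjusted p under 0.05.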
